A study of Mus musculus with 4 samples.

Results

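The genes described here encode the renin-angiotensin and kallikrein-kinin systems in mouse kidney and heart. They are 9 genes, chosen by symbol, of the 55401 genes in the count files: *Ren1*, *Agt*, *Ace* and *Agtr1a* of the renin-angiotensin system, *Kng1*, *Kng2*, *Klk1* and *Bdkrb2* of the kallikrein-kinin system, and *Mme*, a peptidase that acts on the peptides of both. Each symbol matched 1 gene identifier, and all 9 genes are protein-coding in GENCODE M21, which gave the positions below. All 9 reached the minimum used here, a mean of 10 counts per library, in kidney, and 7 reached it in heart, where *Kng1* and *Bdkrb2* were below it.

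Renin, an enzyme released by the juxtaglomerular cells of the kidney, cuts angiotensinogen to angiotensin I, and angiotensin-converting enzyme turns angiotensin I into angiotensin II, which raises blood pressure through its type 1 receptor. Kallikreins cut kininogens to release kinins such as bradykinin, which widen blood vessels and make them leaky. The systems meet in angiotensin-converting enzyme, which also destroys bradykinin, and both are known to be engaged when blood pressure falls in sepsis.

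The study asked whether melatonin protects the kidney in sepsis. Cecal ligation and puncture (CLP) is an operation in which a pierced gut spills its bacteria and sepsis follows, and the comparison here was between CLP and CLP with melatonin (CLP + MLT), within kidney and within heart. RNA was from C57BL/6 mice, and for the kidneys the methods give male mice aged 8 weeks that drank melatonin at 25 μg/ml for 14 days, were then operated upon, and were sampled 24 h later. The melatonin was dissolved in ethanol, and ethanol in water is described for the sham mice only. The methods do not describe the hearts, whose dose and time are therefore unknown here.

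Each of the 4 groups had 1 library, and whether it came from 1 mouse or a pool is not stated. No difference below can therefore be set against the spread between mice. The libraries held 15883057 to 22927905 reads on genes, of which mitochondrial genes took 14.8% in the CLP kidney, 24.2% in the CLP + MLT kidney, 31.6% in the CLP heart and 36% in the CLP + MLT heart. The share was thus higher in the melatonin library of each comparison below, and its part in the results was not tested. Leaving these genes out with the haemoglobin genes changed no call among the 9 genes. That step acts only through the scaling, so it cannot show what a difference in RNA content between the libraries did to other genes. Markers of heart muscle were as the labels say, with 208975 and 158174 counts of *Myh6* in the heart libraries against 69 and 61 in kidney. Markers of kidney tubules were also counted in the heart libraries: the median of 10 proximal tubule markers stood at 2.88% of the kidney level in the CLP heart and at 5.35% in the CLP + MLT heart. Ratios of tubule markers are given below beside the heart results of *Kng2*, *Klk1* and *Mme*, and not beside every heart result. Heart levels of tubule markers are given beside those of the 9 genes.

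The counts were scaled by the TMM method within each tissue, and a log2 ratio is CLP + MLT over CLP. Each range in parentheses after a ratio is a 95% exact interval for counting error only, since reads copied by PCR do not count separate molecules. A gene is said to rise or fall where it passed a fold change of at least 1.5 and an exact binomial p of at most 0.01 on the reads, a test of the 2 libraries and not of the conditions.

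In the kidney, 3 of the 9 genes fell, *Ren1*, *Kng1* and *Bdkrb2*, while 7.58% of the 16932 genes tested fell. Only 1 of the 9, *Kng2*, rose, where 7.80% of all genes tested rose. The median log2 ratio of the 9 genes was 0.16 and that of all genes 0.0029. In the heart, *Kng2* and *Mme* rose and *Agt* fell among 7 genes, while 7.15% of the 15871 genes tested rose and 8.78% fell. The median of the 7 genes was 0.0094 and that of all heart genes 0.0023. *Kng2* was the only gene past the thresholds in both tissues. *Agt* passed them only in the heart and *Ren1*, *Kng1* and *Bdkrb2* only in the kidney, and the difference between tissues was not tested.

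**Figure D1:**
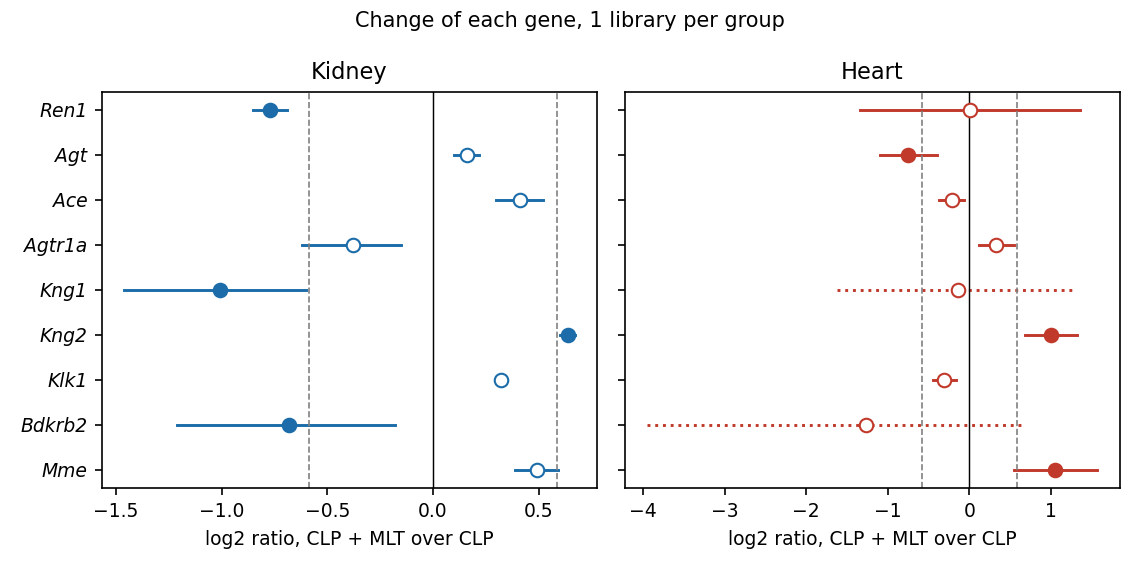
Log2 ratio of CLP + MLT over CLP for the 9 genes in kidney (left) and heart (right), on axes of different width; lines are 95% counting intervals, filled points passed the thresholds, dotted lines mark genes under the minimum count and dashed grey lines a fold change of 1.5. In kidney *Ren1*, *Kng1* and *Bdkrb2* lie to the left and *Kng2* to the right, and in heart *Agt* lies to the left and *Kng2* and *Mme* to the right.

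*Ren1* (ENSMUSG00000070645.5, chromosome 1 from 133350510 to 133360325, plus strand, GRCm38), the renin gene, had 4912 counts in the CLP kidney and 1810 in the CLP + MLT kidney. The level was 200 counts per 1e6 reads (CPM) in the first library and 118 CPM in the second. *Ren1* fell 1.7-fold, a log2 ratio of −0.77 (−0.85 to −0.69). In the heart *Ren1* was close to absent, with 11 counts in each library and a log2 ratio of 0.0094 (−1.34 to 1.36), an interval wide enough to hold a change in either direction.

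Markers of the renin-producing cells differed among themselves. *Akr1b7*, an aldo-keto reductase made with renin in juxtaglomerular cells, fell (426 and 90 counts, log2 ratio −1.57, interval −1.92 to −1.24). *Gja5*, the connexin that joins these cells, had 269 and 175 counts with a ratio of 0.052 (−0.23 to 0.33), and *Gja4* had a ratio of 0.0045. Of the 7 listed markers of these cells, 1 fell and none rose, and their summed level was 152 CPM in CLP and 127 CPM in CLP + MLT. Within the kidney libraries there were 11.5 reads of *Ren1* per read of *Akr1b7* in CLP and 20.1 in CLP + MLT, an odds ratio of 1.74 (1.38 to 2.23). In bulk tissue, fewer cells of a type and less RNA per cell cannot be told apart.

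*Agt* (ENSMUSG00000031980.10, chromosome 8 from 124556534 to 124569706, minus strand), which encodes angiotensinogen, the substrate of renin, had 5635 counts in the CLP kidney and 3958 in the CLP + MLT kidney. Its log2 ratio was 0.16 (0.10 to 0.22), short of the fold threshold, and was −0.033 under scaling by library size alone. The kidney thus held 1.15 reads of *Agt* per read of *Ren1* in CLP and 2.19 in CLP + MLT, an odds ratio of 1.91 (1.78 to 2.04) that does not depend on the scaling.

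In the heart *Agt* counted 188 in CLP and 111 in CLP + MLT. It fell 1.68-fold, with a log2 ratio of −0.75 (−1.10 to −0.40). *Agt* is best known as a liver gene, and some listed liver markers also fell in the heart. *Alb*, serum albumin, went from 140 to 70 counts (−0.99), *Ahsg*, another plasma protein gene of liver, from 76 to 37 (−1.02), and *Apoh*, an apolipoprotein gene, from 48 to 18 (−1.38). Of 7 liver markers that passed the filter in heart, 3 fell and 1 rose, *Serpina1a*, from 22 to 72 counts (1.70). *Apoa2* (−0.93), *Ttr* (−0.26) and *Hp* (−0.28) did not pass the thresholds. The whole list summed to 41 CPM in CLP and 30.9 CPM in CLP + MLT. *Apoh* was not particular to the heart libraries, with 1325 and 636 counts in the kidneys. *Cps1*, a urea cycle enzyme of liver cells, was at 0 in both heart libraries. The part of these genes' RNA in the *Agt* result was not tested.

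*Ace* (ENSMUSG00000020681.14, chromosome 11 from 105967945 to 105989964, plus strand), angiotensin-converting enzyme of endothelium and the tubular brush border, did not pass the thresholds in either tissue. It counted 1474 and 1228 in kidney, for a log2 ratio of 0.41 (0.30 to 0.52), and 741 and 635 in heart, a ratio of −0.21 (−0.37 to −0.058). The intervals lay on opposite sides of 0. In the kidney all 7 endothelial markers had ratios below 0, with a median of −0.43, and 1 of them, *Flt1*, fell. Markers of the proximal tubule, which carries the brush border, had a median of 0.47 in kidney. Of the 10, 7 had ratios above 0 and 3 below, from −3.31 for *Slc5a12* to 2.24 for *Slc7a13*. The part of either cell type in the kidney ratio of *Ace* was not tested. Of the exon bases of *Ace*, 5.58% overlap an antisense gene, *Gm11651*, and whether reads were counted by strand is not stated.

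*Agtr1a* (ENSMUSG00000049115.15, chromosome 13 from 30336441 to 30382867, plus strand), the main type 1 angiotensin receptor of the mouse, counted 462 and 223 in the kidney, for a log2 ratio of −0.38 (−0.62 to −0.15), and from 330 to 413 in the heart, a ratio of 0.33 (0.12 to 0.55). Neither passed the fold threshold. Smooth muscle and mesangium are cells known for this receptor. In kidney all 6 of their markers were below 0, with a median of −0.24, and 1 of them, *Cnn1*, fell. Endothelial, fibroblast and podocyte markers also had kidney medians below 0 (−0.43, −0.35 and −0.29), and proximal tubule markers had one of 0.47. In the heart the median of the 6 smooth muscle and mesangium markers was −0.14. The part of any cell type in either ratio of *Agtr1a* was not tested. There were 0.313 reads of *Agtr1a* per read of *Ace* in the CLP kidney and 0.182 in the CLP + MLT kidney, an odds ratio of 0.579 (0.483 to 0.694). In the heart the same figures were 0.445 and 0.65, an odds ratio of 1.46 (1.22 to 1.75).

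The mouse has a pair of kininogen genes next to each other on chromosome 16, and they moved in opposite directions in the kidney. *Kng1* (ENSMUSG00000022875.18, 23057865 to 23082078, plus strand) counted 197 in CLP and 61 in CLP + MLT and fell 2.02-fold, at a log2 ratio of −1.01 (−1.46 to −0.60). *Kng2* (ENSMUSG00000060459.14, 22985854 to 23029482, minus strand) rose 1.56-fold, from 13475 to 13175 counts in libraries of different depth, or from 549 to 856 CPM, a ratio of 0.64 (0.60 to 0.67). Scaled by library size only, *Kng2* had a ratio of 0.44 and did not pass. Of 10 markers of the proximal tubule, the bulk of the kidney cortex, 3 rose and 3 fell in the same libraries, with a median ratio of 0.47 and a summed level of 6775 CPM in CLP and 9445 CPM in CLP + MLT. The part of that shift in the rise of *Kng2* was not tested.

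Because their products are alike, reads of one kininogen gene can be placed on the other, so the sequences matter to these counts. The coding sequences are 1983 bases in *Kng1* and 1932 in *Kng2*, and 92.7% of the 1929 aligned bases were identical, with a longest identical run of 116 bases. Of the transcript windows of 50 bases of *Kng1*, 17.2% were found unchanged in *Kng2*, and 4.93% of its windows of 100 bases were. Shown first is a coding window of 60 bases with 2 differences, the median over 399 such windows, and then the window with 15, the most found. Capitals mark the bases that differ, and each is given 5′ to 3′ on the gene's own strand from GENCODE transcripts on GRCm38.
Kng1, chr16:23079685-23079744, plus strand: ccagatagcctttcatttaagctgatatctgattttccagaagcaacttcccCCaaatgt
Kng2, chr16:22987606-22987665, minus strand: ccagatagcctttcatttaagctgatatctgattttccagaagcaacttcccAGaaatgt
Kng1, chr16:23073382-23073441, plus strand: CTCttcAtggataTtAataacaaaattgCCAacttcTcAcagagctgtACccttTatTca
Kng2, chr16:23000532-23000591, minus strand: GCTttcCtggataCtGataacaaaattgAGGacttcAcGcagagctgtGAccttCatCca
A read over the second window tells the genes apart many times over, while one over the first does so by 2 bases. The read length is not stated, and reads placed at more than 1 site were listed apart from the gene counts.

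The share of *Kng1* among the reads of both kininogen genes, a value that needs no scaling, was 1.44% (1.25% to 1.65%) in the CLP kidney and 0.461% (0.353% to 0.592%) in the CLP + MLT kidney. The odds ratio was 0.317 (0.233 to 0.425). Reads of *Kng2* misplaced on *Kng1* would enter the smaller count, and their number was not tested. In the heart the shares were 7.25% (3.53% to 12.9%) and 3.42% (1.58% to 6.4%), on 10 and 9 counts of *Kng1*, with an odds ratio of 0.455 (0.159 to 1.28), an interval that spans 1, so this depth could not show a difference.

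In the heart *Kng2* counted 128 and then 254, a rise of 1.99-fold at a log2 ratio of 1.00 (0.69 to 1.32). The gene with the second closest pattern to *Kng2* over the 4 libraries was *Kap*, an androgen-regulated gene of the proximal tubule and among the most abundant transcripts of male kidney. *Kap* had 448683 and 439585 counts in the kidneys and 4352 and 9602 in the hearts. *Kap* was picked for its likeness in these same libraries, so its agreement with *Kng2* is a description only. Of 10 proximal tubule markers in the heart 6 rose and none fell, while 7.15% of all heart genes tested rose and 8.78% fell. The median log2 ratio of the 10 was 1.16, and they summed to 516 CPM in CLP and 654 CPM in CLP + MLT. Most of that sum was *Aqp1*, at 391 and 384 CPM and a ratio of −0.026, so the sum says little of the other markers. How far RNA of kidney tubules entered the heart result of *Kng2* was not tested.

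*Klk1* (ENSMUSG00000063903.5, chromosome 7 from 44225360 to 44229618, plus strand), tissue kallikrein of the connecting tubule, was the most abundant of the 9 genes, with 78110 counts in the CLP kidney and 60999 in the CLP + MLT kidney. Its log2 ratio was 0.32 (0.30 to 0.33), a narrow counting interval short of the fold threshold. In the heart its counts were 878 and 704, at a ratio of −0.31 (−0.45 to −0.16). *Calb1*, calbindin of the same tubule segment, had a ratio of −0.37 (−0.46 to −0.29) in kidney and −0.22 (−0.93 to 0.47) in heart. Of 8 markers of the connecting tubule and collecting duct, 2 rose and none fell in kidney, and 5 of the 7 that passed the filter rose in heart, with a median of 1.34. The 5 that rose, *Aqp2*, *Aqp3*, *Avpr2*, *Hsd11b2* and *Fxyd4*, are best known in the collecting duct. *Trpv5*, a calcium channel of the connecting tubule, had a ratio of −0.086 in kidney and 4 and 1 counts in heart, under the minimum count. *Slc8a1*, also on the list, had ratios above 0, at 0.29 in kidney and 0.13 in heart. The part of any tubule segment in the ratios of *Klk1* was not tested.

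Mouse kallikreins form a cluster of similar genes, and the windows below show how little separates *Klk1* from *Klk1b5*. Their coding sequences have 783 bases each and were 95.1% identical, with a longest identical run of 145 bases. The first pair is a window with 2 differences, the median of 167, and the second the one with the most, 13. Strand, build and capitals are as for the kininogens.
Klk1, chr7:44227553-44227612, plus strand: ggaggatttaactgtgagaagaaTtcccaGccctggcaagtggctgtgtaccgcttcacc
Klk1b5, chr7:44218484-44218543, plus strand: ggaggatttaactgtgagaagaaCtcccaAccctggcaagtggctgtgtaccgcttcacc
Klk1, chr7:44229507-44229566, plus strand: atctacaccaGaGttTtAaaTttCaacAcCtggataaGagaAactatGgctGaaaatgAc
Klk1b5, chr7:44220592-44220651, plus strand: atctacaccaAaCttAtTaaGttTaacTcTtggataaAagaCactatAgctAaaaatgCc
*Klk1b5* counted 162 and 81 in kidney, at a log2 ratio of −0.33 (−0.73 to 0.066) and far below *Klk1*. Of the transcript windows of *Klk1*, 24% of those of 50 bases and 5.09% of those of 100 bases occur unchanged in other genes.

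*Klk1* and *Kng2*, a kallikrein and the more abundant kininogen, can be set against each other within a library. There were 5.8 reads of *Klk1* per read of *Kng2* in the CLP kidney and 4.63 in the CLP + MLT kidney, an odds ratio of 0.799 (0.778 to 0.82). In the heart there were 6.86 and 2.77, an odds ratio of 0.404 (0.317 to 0.514). The ratio was lower with melatonin in both tissues.

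*Bdkrb2* (ENSMUSG00000021070.6, chromosome 12 from 105563226 to 105595237, plus strand), the bradykinin receptor that is present without injury, counted 118 in the CLP kidney and 46 in the CLP + MLT kidney and fell 1.6-fold. Its log2 ratio of −0.68 had an interval, −1.21 to −0.18, that reached well inside the fold threshold. Endothelial cells, known to carry this receptor, had a summed marker level of 279 CPM in CLP and 212 CPM in CLP + MLT. Markers of the connecting tubule and collecting duct summed to 801 CPM in CLP and 891 CPM in CLP + MLT. The part of any cell type in the fall was not tested. In the heart *Bdkrb2* had 8 and 3 counts, a ratio of −1.27 (−3.95 to 0.65) under the minimum count. *Bdkrb1*, the receptor that appears with inflammation, had 3 and 4 counts in kidney and 0 and 4 in heart, too few for a ratio.

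*Mme* (ENSMUSG00000027820.12, chromosome 3 from 63241537 to 63386030, plus strand), neprilysin, a brush border peptidase that cleaves bradykinin, angiotensins and natriuretic peptides, had 1693 and 1496 counts in kidney. Its log2 ratio there was 0.49 (0.39 to 0.59), just under the fold threshold. The median for proximal tubule markers was 0.47, with single markers from −3.31 to 2.24. In the heart *Mme* rose 2.06-fold, with counts of 50 and 103 and a ratio of 1.05 (0.55 to 1.57). *Lrp2*, megalin of the proximal tubule, rose in the heart, with counts of 117 and 329 and a ratio of 1.50 (1.19 to 1.82). It is 1 of 10 markers of that segment, of which 7 had heart ratios above 0 and 3 below, from −1.49 to 2.28. Reads of *Mme* per read of *Lrp2* were 0.148 and 0.157 in the kidneys and 0.427 and 0.313 in the hearts, with an odds ratio between the hearts of 0.733 (0.484 to 1.12). The hearts thus had more *Mme* for their *Lrp2* than the kidneys, and the part of tubular RNA in the rise was not tested further.

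Levels of the 9 genes were compared per length, as RPKM (reads per kilobase of exon, divided by library size as CPM are), scaled over the 4 libraries. In the CLP kidney the order was *Klk1* (2641 RPKM), *Kng2* (180), *Agt* (109), *Ren1* (108), *Ace* (10.2), *Agtr1a* (6.04), *Mme* (5.34), *Kng1* (2.21) and *Bdkrb2* (1.13). In the CLP + MLT kidney *Klk1* (3280 RPKM), *Kng2* (279) and *Agt* (121) again led, *Ren1* stood at 63.3 RPKM, and *Mme* (7.51) stood above *Agtr1a* (4.64). *Agt* and *Ren1* were level in the CLP kidney and differed in the CLP + MLT kidney.

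The hearts had another order. *Klk1* led with 55.1 RPKM in CLP and 46 in CLP + MLT, but next to it stood *Ace* at 9.48 and 8.44 and *Agtr1a* at 8.01 and 10.4, which changed places between the libraries. *Agt* was at 6.72 and 4.13 RPKM and *Kng2* at 3.17 and 6.53, which also changed places. *Ren1*, *Mme*, *Kng1* and *Bdkrb2* were all under 1 RPKM in both hearts. With 1 library a group, no spread says which neighbours differ between mice.

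**Figure D2:**
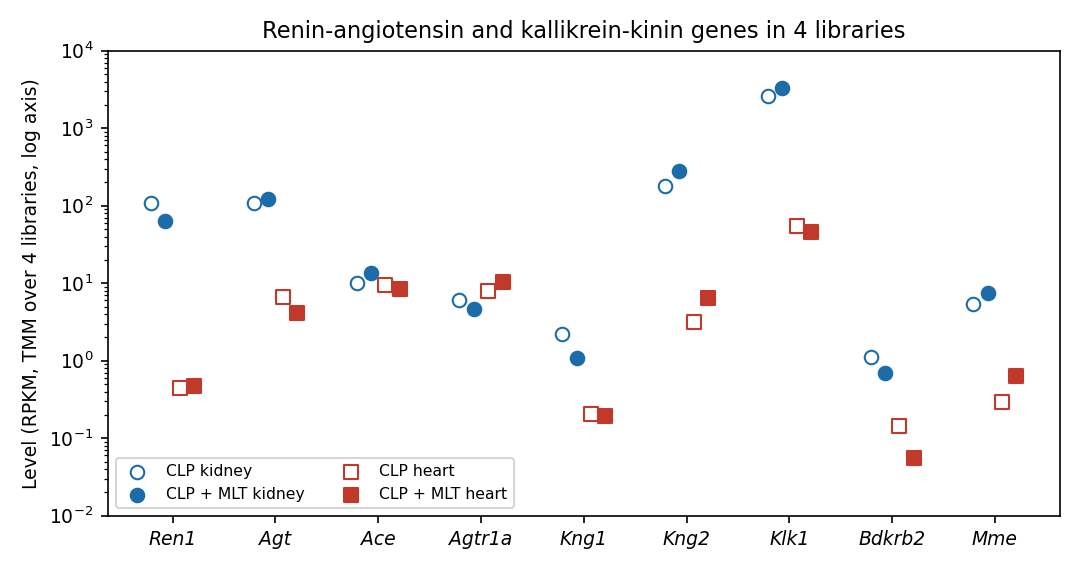
Level of each of the 9 genes in the 4 libraries, in RPKM on a log axis; circles are kidney, squares heart, open symbols CLP and filled symbols CLP + MLT, with 1 library per symbol. *Klk1* is highest in every library, and *Ace* and *Agtr1a* are the genes whose heart and kidney levels lie close together.

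Set against kidney, the heart levels differed widely among the 9 genes. *Agtr1a* stood at 133% of its kidney level in CLP and at 225% in CLP + MLT, and *Ace* at 93.3% and 62.8%. *Kng2* stood at 1.76% and 2.34%, *Klk1* at 2.09% and 1.4%, and *Ren1* at 0.416% and 0.738%. The 18 markers of the proximal tubule, connecting tubule and collecting duct ranged from 0.409% to 283% in CLP, with a median of 2.25%, and from 0.636% to 262% in CLP + MLT, with a median of 3.92%. In CLP 11 of the 18 stood above *Kng2*, 10 above *Klk1* and 17 above *Ren1*, and in CLP + MLT 15, 16 and 17 did. These 3 genes thus lay within the range of the tubule markers and below its median. *Agt* at 6.19% and 3.4%, *Mme* at 5.48% and 8.36%, *Kng1* at 9.42% and 17.9% and *Bdkrb2* at 12.6% and 7.92% also lay within that range, the last pair on few reads. So did *Ace* and *Agtr1a*, with 17 of the 18 markers below each and 1 above, *Slc8a1*, at 283% and 262%. The top of the range rested on *Slc8a1* alone, since the next marker, *Aqp1*, stood at 82.5% in CLP and 61.5% in CLP + MLT. *Ace* and *Agtr1a* thus lay above every listed tubule marker but *Slc8a1*.

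**Figure D3:**
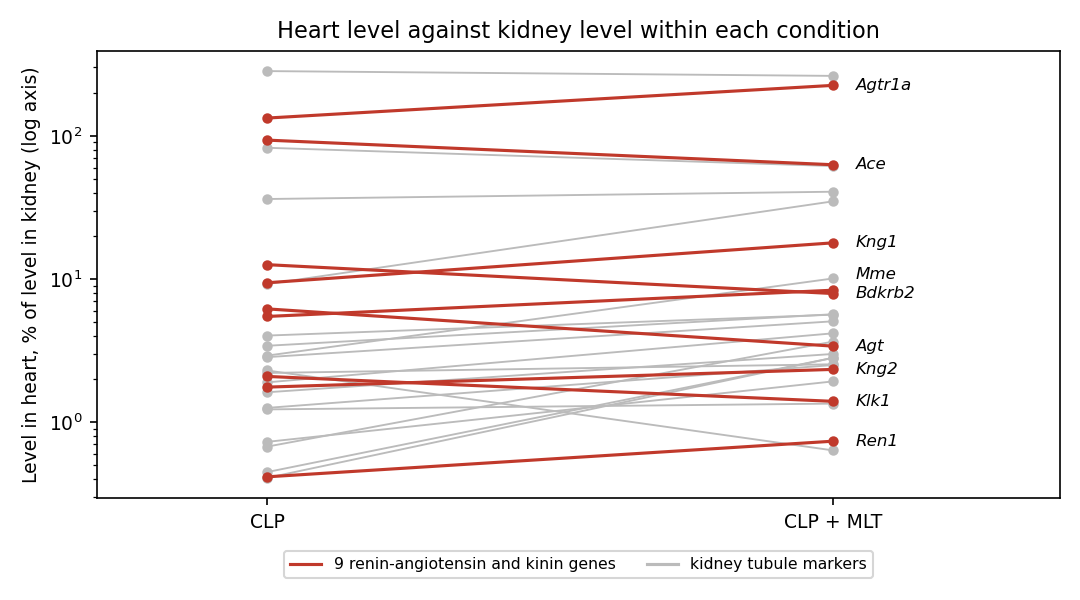
Heart level as a percent of kidney level (log axis) in CLP and in CLP + MLT, for the 9 genes (red) and for markers of kidney tubules (grey), each line joining 1 gene's values. *Agtr1a* and *Ace* lie far above the other red lines, from 62.8% to 225%, and *Kng2*, *Klk1* and *Ren1*, between 0.416% and 2.34%, lie below the median of the tubule markers (2.25% in CLP and 3.92% in CLP + MLT).

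The patterns of the genes with the largest ratios past the thresholds were compared with those of 13475 other genes by the distance of centred log2 CPM over the 4 libraries, a description only. Closest to *Kng1* were *H6pd* (distance 0.107), *Gm16537* (0.19) and *Nrg1* (0.213). *H6pd*, a dehydrogenase of the endoplasmic reticulum, had 5481 and 1713 counts in kidney and 316 and 271 in heart. Closest to *Kng2* were *Hoxb6* (0.142), *Kap* (0.15) and *Proc* (0.157), and closest to *Mme* were *Cth* (0.148), *Abhd3* (0.157) and *Slc28a1* (0.193). *Slc28a1*, a nucleoside transporter of the tubule, had 331 and 262 counts in kidney and 10 and 21 in heart.

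Of 49 other genes of the same pathways, 37 passed the filter in kidney, where 3 rose and 4 fell, with a median log2 ratio of −0.051. In the heart 25 passed, 3 rose and 2 fell, with a median of 0.074. Of all genes tested, 7.80% rose and 7.58% fell in kidney, and 7.15% rose and 8.78% fell in heart. No test set the pathway counts against these shares.

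Of the 18 other renin-angiotensin genes 13 passed the filter in kidney, and none of these passed the thresholds. *Mas1*, a receptor whose signals oppose those of angiotensin II, counted 30 and 8, at a log2 ratio of −1.20 (−2.57 to −0.076), and *Atp6ap2*, the prorenin receptor, had 1534 and 820, a ratio of −0.23.

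In the heart *Mas1* counted 111 and 123, at a log2 ratio of 0.16, and *Atp6ap2* 158 and 176, at a ratio of 0.17. *Prcp*, a carboxypeptidase that shortens angiotensin II, rose, with 100 and 179 counts and a ratio of 0.85 (0.49 to 1.22). *Thop1*, a peptidase that cleaves angiotensin I and bradykinin, fell from 397 to 254, a ratio of −0.63 (−0.87 to −0.40), which was −0.58 and did not pass when scaled by library size only. The remaining angiotensin receptors, *Agtr1b* and *Agtr2*, had 0 counts in all 4 libraries, which allows up to 3 counts in each.

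Among the other kallikrein-kinin genes of the kidney, 16 of 23 passed the filter, 2 rose and 2 fell. Of all kidney genes tested, 7.80% rose and 7.58% fell. *Klkb1*, plasma kallikrein, rose, with 65 and 96 counts and a log2 ratio of 1.23 (0.77 to 1.71), and *Xpnpep2*, an aminopeptidase that inactivates bradykinin, rose from 59 to 78, a ratio of 1.07 (0.57 to 1.59). *Cpn1*, the catalytic chain of a carboxypeptidase that trims kinins, fell from 1446 to 560, a ratio of −0.70 (−0.84 to −0.55). *Klk1b9*, a kallikrein of the same cluster as *Klk1*, fell from 96 to 31, a ratio of −0.95 (−1.59 to −0.36), with the same uncertainty over shared reads. In the heart 5 of the 23 passed the filter and none passed the thresholds, and *Klkb1* had 8 and 11 counts.

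Genes of the aldosterone response, the arm that follows angiotensin II in the distal nephron, all passed the filter in kidney. Of these 8 genes, 1 rose and 2 fell there, while 7.80% of all kidney genes tested rose and 7.58% fell. *Nr3c2*, the mineralocorticoid receptor, rose, with 264 counts in each library and a log2 ratio of 0.67 (0.42 to 0.92), but was at 0.48 and did not pass when scaled by library size only. *Sgk1*, a kinase induced by mineralocorticoids and glucocorticoids, fell from 2642 to 1042, a ratio of −0.67 (−0.78 to −0.57), and *Fkbp5*, a glucocorticoid-induced gene, fell from 2583 to 932, a ratio of −0.80 (−0.91 to −0.69). *Fkbp5* also fell in the heart, from 1230 to 424, a ratio of −1.53 (−1.69 to −1.37). *Hsd11b2*, the enzyme that keeps cortisol-like steroids off the receptor, rose in the heart from 26 to 66 counts (1.34), as did *Scnn1b*, a sodium channel subunit, from 9 to 25 (1.43). *Hsd11b2* is also on the list of collecting duct markers, of which 5 rose in the heart.

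**Figure D4:**
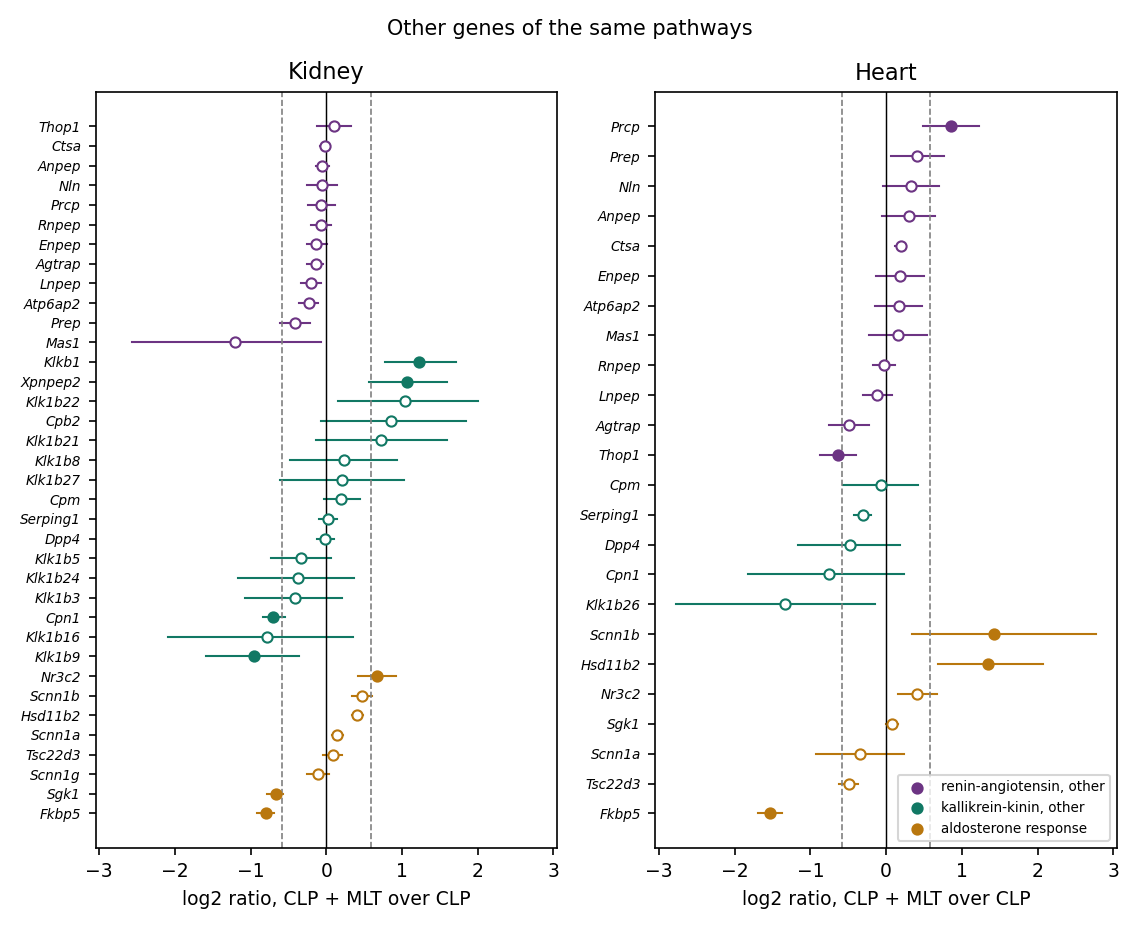
Log2 ratio of CLP + MLT over CLP for other listed genes of the pathways that passed the minimum count, in kidney (left) and heart (right); lines are 95% counting intervals, filled points passed the thresholds and colours give the list. Points of the renin-angiotensin list in kidney are all open, and *Klkb1* (1.23) and *Klk1b9* (−0.95) are the outermost filled points of the kallikrein-kinin list there.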

How the data were processed

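Libraries were made from poly-A RNA. Reads were trimmed with trim-galore and aligned to mm10 with HISAT2 2.1.0, and the authors deposited counts of reads per gene without normalization. HTSeq is named in the submitters' processing notes. No source used here gives its version, its strand setting or the annotation. Each file ended with 5 totals that name no gene, which were not used. Of the reads placed on a gene or on none, 52.1% to 52.6% lay on none. The 4 libraries held 22927905, 16474248, 16623050 and 15883057 reads on genes (CLP kidney, CLP + MLT kidney, CLP heart, CLP + MLT heart). Names from GENCODE M21 matched 55141 of 55401 identifiers.

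TMM factors were computed within tissue (edgeR 4.0.16, R 4.3.3) on genes that reached a mean of 10 counts. Ratios used a prior count of 0.5. The study states edgeR with fold change and p thresholds of 1.5 and 0.01; with 1 library per group these thresholds were set on an exact binomial test of the reads (scipy 1.17.1). Intervals are exact (Clopper-Pearson), for counting error only. Alternatives were library size only, DESeq2 1.42.0 size factors, upper quartile factors, a minimum mean of 0 or 50 counts, a prior of 5, leaving out mitochondrial and haemoglobin genes, a fold change of 2, and the edgeR exact test with the coefficient of variation set to 0.2 or 0.4. On counts simulated with counting error only, 194 of 200 changed genes were recovered in kidney (46 unchanged genes called among 16927) and 189 of 200 in heart (48 among 15877). The simulation held no spread between mice, so it checks the computation and not whether the calls would recur in other mice.

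The 9 genes and the lists, written from general knowledge, were chosen with earlier results of these data known. Named were the 9 genes, other pathway genes past the thresholds, *Agtr1b*, *Agtr2*, *Mas1*, *Bdkrb1*, *Klkb1* and *Atp6ap2*, markers of cells known to express a gene, and the 3 genes most alike to the 3 genes with the largest ratios. Ratios between genes, and *Klk1b5* as partner, were chosen after their values were seen. Of the pathway lists, 1 gene enters the counts and medians, but its own values are neither reported nor drawn here.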

Additional observations from a re-analysis of the deposited data

Results flagged for a closer look

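Among the 9 genes, 4 had counting intervals on opposite sides of 0 in the kidney and in the heart. With 1 library per group the difference between the tissues was not tested. For *Agt* the log2 ratio (melatonin over CLP alone) was 0.16 in kidney and −0.75 in heart; scaled by library size only, the kidney value was −0.033, on the same side as the heart. For *Ace* it was 0.41 in kidney and −0.21 in heart. For *Agtr1a* it was −0.38 in kidney and 0.33 in heart. For *Klk1* it was 0.32 in kidney and −0.31 in heart. Of these 8 values, only that of *Agt* in heart passed the thresholds.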

How the results depend on the processing

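With 1 library per group the spread between mice is unknown, and the counts of genes past the thresholds rest on counting error only. At an assumed coefficient of variation of 0.2, 0 of the 9 genes passed in kidney (4 as reported) and 0 in heart (3 as reported), with 0 and 1 of the other pathway genes (7 and 5 as reported); at 0.4 all 4 counts were 0. At a fold change of at least 2, 1 of the 9 passed in kidney (*Kng1*) and 1 in heart (*Mme*), with 2 and 3 of the other pathway genes. Under a minimum mean of 50 counts, 3 other pathway genes passed in heart, with fewer genes tested. Scaled by library size only, the median of all kidney genes was −0.19, and 23.5% of all kidney calls were higher against 50.7%; the median of the 9 genes was −0.033 against 0.16, *Agt* turned to −0.033, *Kng2* at 0.44 did not pass, and *Ren1*, *Kng1* and *Bdkrb2* still fell. In heart, calls were higher in 44.9% as reported and in 38.6% under that minimum. The same scaling ended the calls of *Nr3c2* in kidney (0.48) and *Thop1* in heart (−0.58) and added *Prep* in kidney (−0.60). Without a filter, which adds *Kng1* and *Bdkrb2*, the heart median was −0.14 against 0.0094. Single genes were followed under the alternatives of scaling, filter and prior count, and not under the fold change of 2 or the assumed variation. With library size set apart, all 97 of these values kept their direction and side of the thresholds. Mean counts under 10, as for *Kng1* and *Bdkrb2* in heart, limit what can be seen there.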
